A study of Mus musculus with 4 samples.

Results

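The 40 genes described here are the RNA sensors of mouse cells, the adaptor and transcription factors that carry their signal, and the interferon-stimulated genes at the end of that route. They were chosen by name, and each of the 40 symbols matched 1 row among the 55450 genes of the table, through GENCODE mouse release M21. They comprise 6 sensors, 5 adaptor and transcription factor genes, and 29 effectors. RNA was measured in cultured Th17 cells, the class of CD4 helper T cells that makes IL-17, grown from naive CD4+ cells that came from animals 8 to 12 weeks old. The design text calls the mice wild type, and the labels give all cultures the genotype of a Cas9 transgene. The guide cultures were transduced with a retroviral PSIN vector bearing a guide against Adarb1 (sgAdarb1, 2 cultures), and the controls with the empty PSIN vector (2 cultures). Each of 2 donor mice gave 1 culture of each kind, per the series' design text. In all 4, T cells received anti-CD3 (0.25 µg/mL) with anti-CD28 (1 µg/mL), then retrovirus after 24 h, then 72 h of TGF-β (0.3 ng/mL) with IL-6 (20 ng/mL). The empty vector carries no guide, so Cas9 cutting as such and loss of the gene product cannot be told apart, and the promoter that drives Cas9 is not given in the labels. Adarb1 encodes ADAR2, which changes adenosine to inosine in double-stranded RNA.

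Double-stranded or unusually capped RNA in the cytosol is bound by the helicases MDA5 and RIG-I, which signal through MAVS on mitochondria to IRF3 and IRF7 and so to interferon genes. Secreted type I interferon acts through its receptor on a complex that holds STAT2 and IRF9 and binds an interferon-stimulated response element (ISRE) in the promoters of antiviral genes. The related editing enzyme ADAR1, not ADAR2, is the one best known for keeping a cell's own double-stranded RNA from being sensed by MDA5. T cells hold most of this machinery and respond to interferon from other cells.

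The letters of the ISRE were shared by many, but not all, of the effectors searched. Promoter stretches that hold them are shown for effectors of different families and for one pair of close copies. Promoters were taken from RefSeq (GRCm38.p6), which listed 31 of the 40 genes by symbol, each as 250 bases before and 50 after a transcription start. The letters searched were GAAA, then 2 bases of any kind, then GAAA, on both strands, so that a match on the opposite strand reads TTTC, 2 bases, TTTC. Below, the 200 bases before the start are given 5′ to 3′ on the gene's own strand, in lower case with each match in capitals. They are Isg15 at chr4:156200819-156201018 (minus strand), Bst2 at chr8:71537473-71537672 (minus strand), Oas3 at chr5:120777660-120777859 (minus strand), Irgm1 at chr11:48871421-48871620 (minus strand), Gbp2 at chr3:142620463-142620662 (plus strand), Ifit1 at chr19:34640689-34640888 (plus strand), Ifit3 at chr19:34583329-34583528 (plus strand) and Ifit3b at chr19:34607757-34607956 (plus strand).
Isg15: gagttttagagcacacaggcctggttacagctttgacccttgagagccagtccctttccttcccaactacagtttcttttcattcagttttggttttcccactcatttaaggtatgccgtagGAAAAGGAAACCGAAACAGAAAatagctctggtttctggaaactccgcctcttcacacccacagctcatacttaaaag
Bst2: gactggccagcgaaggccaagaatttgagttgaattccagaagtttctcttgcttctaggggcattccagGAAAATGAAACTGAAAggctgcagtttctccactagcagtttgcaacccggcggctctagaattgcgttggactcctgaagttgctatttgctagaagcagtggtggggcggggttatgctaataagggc
Oas3: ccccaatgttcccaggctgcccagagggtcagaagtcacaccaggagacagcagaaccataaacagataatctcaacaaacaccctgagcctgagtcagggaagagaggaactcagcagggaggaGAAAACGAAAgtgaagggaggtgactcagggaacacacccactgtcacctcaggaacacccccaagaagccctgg
Irgm1: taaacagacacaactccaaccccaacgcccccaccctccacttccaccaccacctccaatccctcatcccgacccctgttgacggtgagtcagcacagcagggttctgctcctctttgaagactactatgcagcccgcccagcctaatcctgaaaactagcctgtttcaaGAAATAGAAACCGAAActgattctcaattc
Gbp2: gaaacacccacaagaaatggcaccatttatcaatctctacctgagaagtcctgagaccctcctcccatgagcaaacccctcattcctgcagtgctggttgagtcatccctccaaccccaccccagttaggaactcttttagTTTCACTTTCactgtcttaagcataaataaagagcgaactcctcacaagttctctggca
Ifit1: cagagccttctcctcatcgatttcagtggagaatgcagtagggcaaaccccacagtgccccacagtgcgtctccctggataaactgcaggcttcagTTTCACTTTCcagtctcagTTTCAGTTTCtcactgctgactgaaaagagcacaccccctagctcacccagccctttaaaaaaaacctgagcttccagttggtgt
Ifit3: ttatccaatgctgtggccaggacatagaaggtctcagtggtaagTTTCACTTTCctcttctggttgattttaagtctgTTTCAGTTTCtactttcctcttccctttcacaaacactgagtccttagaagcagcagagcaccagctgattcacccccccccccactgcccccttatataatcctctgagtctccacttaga
Ifit3b: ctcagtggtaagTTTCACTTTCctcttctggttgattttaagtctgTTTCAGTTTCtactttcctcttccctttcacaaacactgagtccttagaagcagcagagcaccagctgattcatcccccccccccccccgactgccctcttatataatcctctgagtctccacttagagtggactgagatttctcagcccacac
In Isg15 the 3 matches overlap one another, as do the 2 in Bst2 and the 2 in Irgm1. The Ifit3 and Ifit3b stretches hold the same pair of matches, which begin at positions -156 and -122 from the start in Ifit3 and at -188 and -154 in Ifit3b. Over the 250 bases before each start, the promoters of this pair aligned end to end with 77.0% identity, 217 of 282 alignment columns. The alignment is longer than either window, since the shared matches lie at different distances from the 2 starts. The percentage therefore also counts bases left unpaired by the placing of the windows, and understates the likeness of the shared stretch.

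Matches stood in 19 of the 31 listed genes (61.3%), against 3.99% of all 27025 genes in the promoter table, searched over windows of the same size. The number of windows per gene differed: 5 of the 31 had more than 1, and the 27025 genes had 32851 in all. Among effectors 15 of 22 listed genes held one, and in all 15 at least one match lay before the start. Of the 4 sensors listed, 3 held a match (Ifih1, Ddx58 and Eif2ak2), and in each it lay within the first 50 transcribed bases, beginning at base 33, 3 and 19. Among the adaptor and transcription factor genes 1 of 5 held one, Stat2, beginning at position -222. The gamma-activated site (GAS), an element of interferon-gamma responses, was searched as TTCNNNGAA, which reads the same on both strands. It was found in 6 of the 31 genes (19.4%) against 9.55% of all genes in the table. In Bst2 the GAS letters, which begin at position -136, overlap the first ISRE match. A match is only a run of letters in this window, and binding was not measured.

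**Figure D1:**
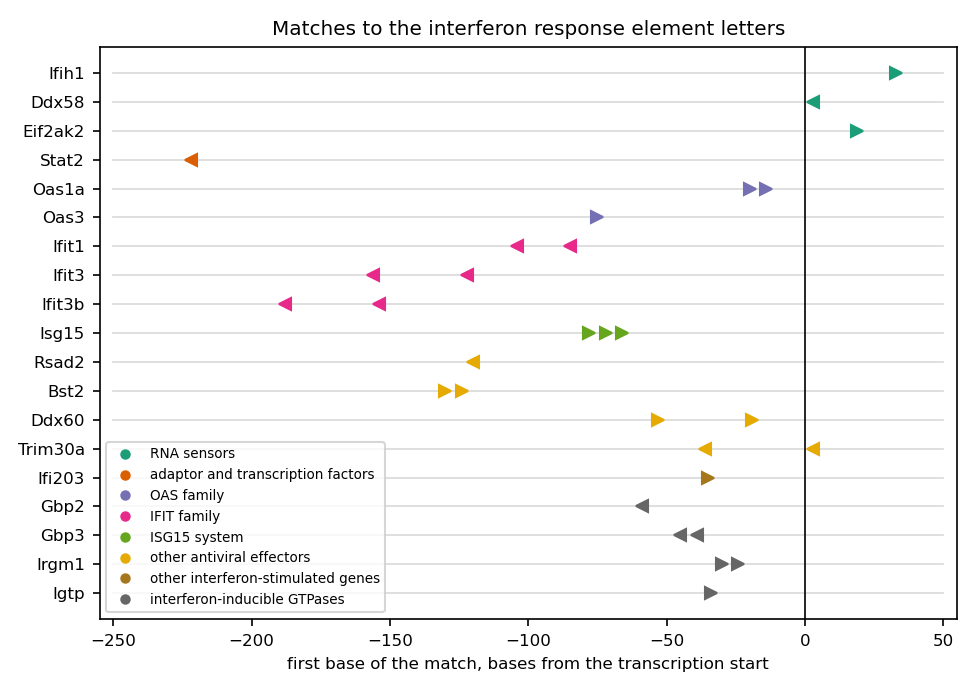
Position of each ISRE match (first base, in bases from the transcription start) in the 19 genes that hold one, with the gene's listed promoters drawn on 1 line. Triangles pointing right are matches on the gene's strand and those pointing left on the opposite strand; 3 sensors have theirs after the start, and all 15 effectors have one before it.

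The measurements are those of the authors' deposited table, which gives for each gene 1 mean over all libraries and 1 fold change with its standard error (SE). The 4 columns of values per library bear names that match no sample label, so values per culture are not given here. Following how the design text words the comparison, fold changes are read as sgAdarb1 over empty vector; the table itself does not name the numerator, and with the other order every sign would turn. One label field, the treatment tag, puts both cultures of the first replicate under empty vector and both of the second under sgAdarb1, while titles and design text give each donor both arms, and which grouping the authors used could not be checked. The labels name 2 mice, and p-values rest on the spread between these 4 cultures. Mean normalized counts summed to 17705898 over all genes, and 0 of 29383 genes with a fold change had an adjusted p below 0.05 according to the authors' deposited table (DESeq2). The Th17 cytokine genes Il17a and Il17f stood at 1500 and 1849 mean normalized counts per kb of exon, beside Cd4 at 3791 and Cd3e at 1262, computed from the authors' deposited table. Il17a lay at 0.70 ± 0.15 (log2 fold change, SE; unadjusted p = 2.9e-06, adjusted p = 0.0709, DESeq2), the smallest unadjusted p of all genes, and Il17f at 1.11 ± 0.53 (adjusted p = 1.00) according to the authors' deposited table. Adarb1 itself lay at 0.11 ± 0.12 (log2, SE) with a mean of 2130, and Adar, which encodes ADAR1, at -0.03 ± 0.11 with a mean of 2637, according to the authors' deposited table. A cut by Cas9 need not lower the amount of mRNA, so the Adarb1 value checks no label.

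Most of the sensing and response machinery was present in these cells. Of the 40 genes, 39 had a mean of at least 10 normalized counts, 36 of at least 50 and 13 of at least 1000 according to the authors' deposited table, and together they held 0.226% of all mean normalized counts. Per kb of exon, 25 of the 39 exceeded the median of 74.6 over the 14547 genes at or above 10, and 7 stood in the top 10% (Zbp1, Isg15, Bst2, Trim30a, Ifi27l2a, Gbp2 and Igtp). Levels here are means over both groups, divided by the exon length in GENCODE M21.

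Among the sensors, Zbp1, which binds left-handed nucleic acids and can trigger necroptosis, was the most abundant per length at 620 mean normalized counts per kb. Eif2ak2, the kinase PKR that halts translation on double-stranded RNA, followed at 352 per kb in values derived from the authors' deposited table. Ddx58 (RIG-I) stood at 272, Ifih1 (MDA5) at 181 and Dhx58 (LGP2, a relative that lacks the signalling domains) at 137 per kb. Tlr3, the endosomal receptor for double-stranded RNA, was nearly absent, with a mean of 1.54 normalized counts in all according to the authors' deposited table. On mm10 (GENCODE M21) the sensor genes lie at chr2:173206612-173218923 (Zbp1), chr17:78852564-78882573 (Eif2ak2), chr4:40203773-40239828 (Ddx58), chr2:62595798-62646255 (Ifih1), chr11:100694884-100704271 (Dhx58) and chr8:45395665-45411080 (Tlr3), all on the minus strand. The 5 cytosolic sensors all lay above the median gene, and Tlr3 did not reach the minimum mean of 10. The adaptor and transcription factor genes were close to one another, with Irf9 at 285, Stat2 at 267, Irf3 at 177, Mavs at 155 and Irf7 at 106 per kb.

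Effectors ranged from 5.25 per kb for Oas2 to 4835 per kb for Ifi27l2a, computed from the authors' deposited table. Some products of the oligoadenylate synthetase family activate RNase L. Within this family Oas3 stood at 379 per kb, against 47.4 for Oas1a, 29.8 for Oasl2, 16.0 for Oasl1 and 5.25 for Oas2. In Oas1a, 57.6% of the 50-base runs (50-mers) of its transcripts occur in other genes, most often Oas1g, so its level is uncertain. The IFIT genes, whose proteins bind RNA with foreign ends, were at 110 (Ifit1), 31.8 (Ifit3) and 7.11 per kb (Ifit3b). The levels of Ifit3 and Ifit3b are uncertain too, since 51.2% and 45.0% of their 50-mers occur in another gene. All 4 interferon-inducible GTPases, which act on the membranes around intracellular microbes, were well expressed: Gbp2 at 1766, Igtp at 1409, Irgm1 at 417 and Gbp3 at 168 per kb. The 9 other antiviral effectors ran from 962 per kb for Bst2, the tetherin that holds budding virus at the cell surface, through Trim30a (808), Parp14 (392), Isg20 (110), Mx1 (70.4), Cmpk2 (51.3), Ddx60 (41.7) and Mx2 (35.4) to Rsad2 at 21.3. Isg15, a ubiquitin-like modifier, was at 553 per kb.

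**Figure D2:**
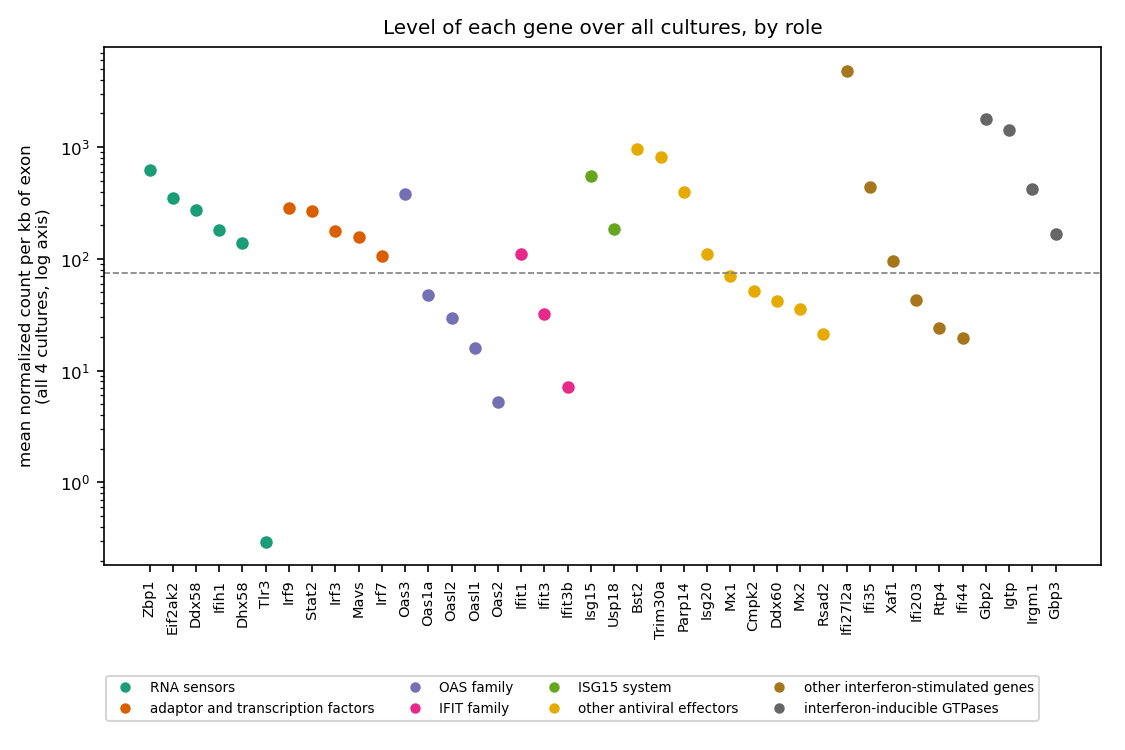
Mean normalized count per kb of exon (log axis) over all 4 cultures for each of the 40 genes, ordered by role and then by level; the dashed line is the median of genes with a mean of at least 10 (74.6). Tlr3 lies far below all others, and the 4 interferon-inducible GTPases all lie above the line.

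The comparison asked whether this programme differed between sgAdarb1 Th17 cultures and empty-vector cultures from the same mice. No member passed: 0 of 40 had an adjusted p below 0.05 (background 0% of 29383 genes) and 0 of 40 an unadjusted p below 0.05 (background 0.208%) according to the authors' deposited table, which comes from DESeq2. Among all 29383 genes, 61 had an unadjusted p below 0.05, where uniform p-values would give 1469. A count of 0 among 40 genes therefore says little. Of the 39 members with a mean of at least 10, 18 were positive and 21 negative, so 46.2% were positive against 50.5% of all such genes. Their median log2 fold change was -0.01, beside 0.00 over all 14547 genes. In size, 22 of the 40 log2 fold changes lay within 0.1 of zero and 35 within 0.3. The 5 beyond 0.3 were Mx1, Oas2, Ifit3, Rtp4 and Tlr3, and each had a 95% interval that spans zero. In bulk RNA, fewer cells of a type and less RNA per cell cannot be told apart, which holds for every value below.

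The sensors gave no common direction. Ifih1 lay at -0.01 ± 0.14 (log2 fold change, SE), Ddx58 at 0.02 ± 0.12 and Dhx58 at 0.09 ± 0.22 according to the authors' deposited table. Zbp1 was at 0.06 ± 0.12 and Eif2ak2 at -0.19 ± 0.13, the largest of the 5 expressed sensors (unadjusted p = 0.148, adjusted p = 1.00, DESeq2), according to the authors' deposited table. Their median was 0.02, with 3 positive and 2 negative; with Tlr3 it was 0.0009. The 95% interval of MDA5's gene Ifih1 ran from -0.29 to 0.27 and that of RIG-I's gene Ddx58 from -0.22 to 0.26, so both exclude a 1.5-fold difference. Tlr3 was at -1.26 ± 3.77 with its mean of 1.54 according to the authors' deposited table, an interval from -8.64 to 6.13 that says nothing of size or direction.

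Between sensing and response, the 5 adaptor and transcription factor genes had a median of 0.05, with 3 positive and 2 negative. Mavs was at -0.08 ± 0.20 and Irf3, which MAVS signalling activates by phosphorylation, at 0.09 ± 0.19 according to the authors' deposited table. Irf7, itself an interferon-stimulated gene that amplifies the response, was at 0.28 ± 0.23 (unadjusted p = 0.228, adjusted p = 1.00, DESeq2) according to the authors' deposited table. Its interval ran from -0.18 to 0.74, which excludes a doubling. The partners Irf9 and Stat2 were at -0.06 ± 0.13 and 0.05 ± 0.13 according to the authors' deposited table.

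The 29 effectors had a median of -0.03, with 12 positive and 17 negative. The 5 genes of the synthetase family split 2 to 3: Oas3 at 0.03 ± 0.11, Oasl1 at 0.12 ± 0.67, Oasl2 at -0.18 ± 0.33, Oas1a at -0.27 ± 0.46 and Oas2 at -0.54 ± 0.92 according to the authors' deposited table. Oas3, by far the most abundant of the family, had the smallest SE. The Oas1a value is uncertain, since 57.6% of its transcript 50-mers occur in other genes. Of the IFIT genes, Ifit1 was at 0.10 ± 0.27, Ifit3 at 0.51 ± 0.62 and Ifit3b at -0.28 ± 1.24 according to the authors' deposited table. Ifit3 and Ifit3b are close copies: 51.2% of the Ifit3 and 45.0% of the Ifit3b transcript 50-mers occur in another gene, mainly in each other, so their separate values are uncertain. Isg15 was at 0.04 ± 0.23 and Usp18, the protease that removes ISG15 and damps receptor signalling, at -0.16 ± 0.20 according to the authors' deposited table.

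Of the other antiviral effectors 3 were positive and 6 negative. Parp14, a mono-ADP-ribosyltransferase, had the smallest unadjusted p of the 40 genes: it lay at -0.17 ± 0.10 with a mean of 3652 (unadjusted p = 0.0959, adjusted p = 1.00, DESeq2) according to the authors' deposited table. That is an estimated 0.890-fold level, with a 95% interval from -0.37 to 0.03 on the log2 scale. The dynamin-like GTPases Mx1 and Mx2 lay on opposite sides, at -0.37 ± 0.29 and 0.16 ± 0.38 according to the authors' deposited table. Rsad2 (viperin) and its neighbour Cmpk2, a nucleotide kinase gene, were at 0.01 ± 0.46 and -0.09 ± 0.30 according to the authors' deposited table. All 4 intervals span zero. Bst2 was at -0.10 ± 0.16, the exonuclease gene Isg20 at -0.05 ± 0.31, the helicase gene Ddx60 at 0.15 ± 0.24 and Trim30a, a regulator of NF-κB signalling, at -0.02 ± 0.11 according to the authors' deposited table.

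Further members gave the same picture. Ifi27l2a, the most abundant member per length, was at 0.11 ± 0.12, Ifi35 at 0.02 ± 0.17 and Xaf1, which antagonizes an inhibitor of apoptosis, at 0.06 ± 0.22 according to the authors' deposited table. Ifi203, of the nucleic acid-binding HIN-200 family, was at -0.03 ± 0.27 and Ifi44 at -0.29 ± 0.40 according to the authors' deposited table. Rtp4, a chaperone of receptor transport, was at 0.52 ± 0.60 with a mean of only 51.7 according to the authors' deposited table, and 13.9% of its exon bases are also exon of Gm45338 on the same strand. The 4 GTPase genes were all negative but small: Gbp2 at -0.08 ± 0.10, Gbp3 at -0.07 ± 0.20, Igtp at -0.04 ± 0.11 and Irgm1 at -0.00 ± 0.12 according to the authors' deposited table. None of these 4 lay further from zero than its SE.

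**Figure D3:**
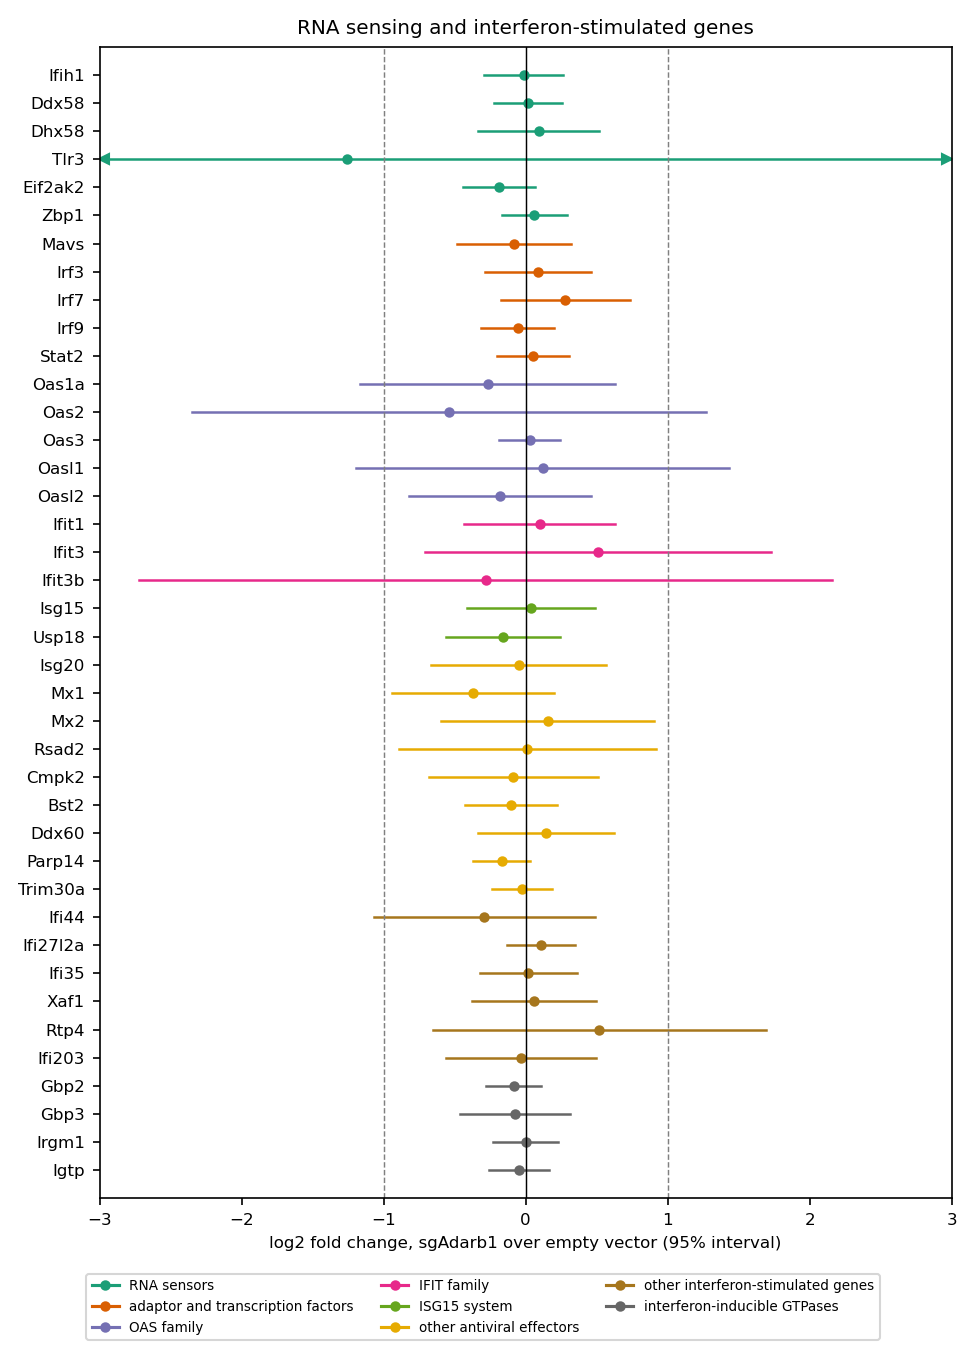
Log2 fold change (point) of sgAdarb1 over empty vector with its 95% interval (line) for each of the 40 genes, coloured by role; dashed lines mark a 2-fold difference, and arrows mark the interval of Tlr3, which runs past the axis. Every interval crosses zero, and 32 lie within the dashed lines.

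The deposited intervals bound how large a difference could have been. That is a difference between sgAdarb1 and empty vector only if the authors grouped cultures by titles and design text. This grouping could not be checked. For 32 of the 40 genes the 95% interval excluded a 2-fold difference in either direction, and for 23 it excluded a 1.5-fold one. Among the 39 with a mean of at least 10 this share was 82.1%, against a background of 64.5% of genes at that minimum, and their median mean was 449 against 290 normalized counts. The 8 genes whose interval reached beyond 2-fold were Tlr3, Oas1a, Oas2, Oasl1, Ifit3, Ifit3b, Ifi44 and Rtp4, with means from 1.54 to 120 according to the authors' deposited table. For those 8 a doubling or halving was not excluded at this depth.

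The spread behind these values was ordinary for their level. Divided by the running median SE of genes with like means, the SE of the 39 genes ran from 0.984 to 1.09 times. By contrast Il17f stood at 5.22 times and Cd8a at 2.69 times, and 120 of all 14547 genes (0.825%) were at 1.5 times or more. DESeq2 shares its estimate of spread among genes of like level, so an SE near the running median shows only that the gene was not set apart as unusually variable. The deposited SE were also large beside the fold changes themselves. The median absolute Wald statistic was 0.41 for the 39 genes and 0.37 for all 14547, where a standard normal gives 0.67.

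**Figure D4:**
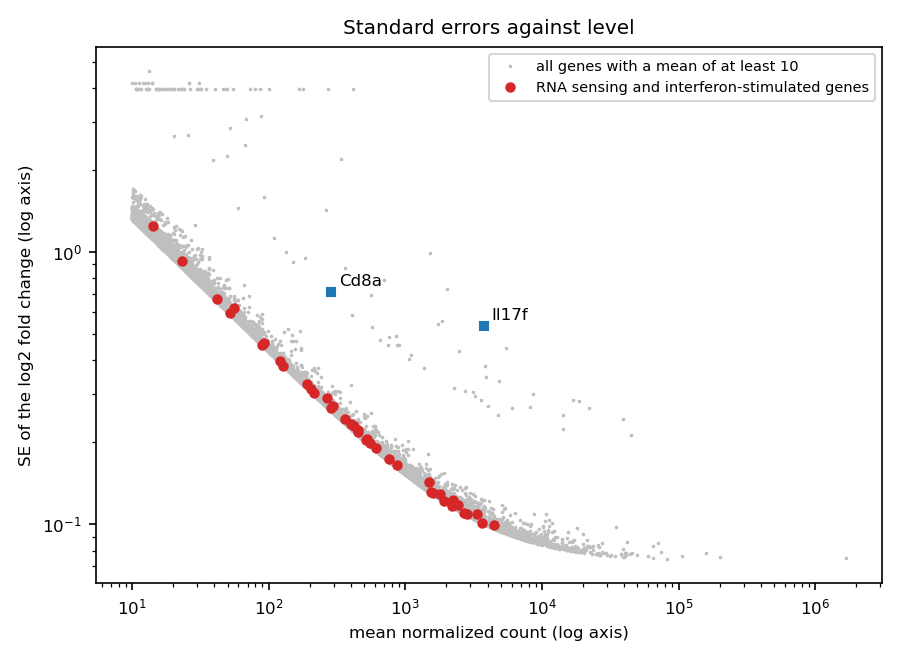
SE of the log2 fold change against the mean normalized count (both log axes) for genes with a mean of at least 10, grey, with the 39 members at that minimum in red. The members lie along the main band, while Cd8a and Il17f, in blue, lie above it.

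The rest of the pathway was read from lists chosen by role. Of 21 interferon ligand genes 13 were listed at 0 and 7 more had means below 10, among them Ifnb1 at 2.70 and Ifna4 at 1.55 according to the authors' deposited table. The exception was Ifng, the type II interferon of T cells, at -0.21 ± 0.19 with a mean of 1131 according to the authors' deposited table. Receptor and JAK-STAT genes were split 8 positive to 5 negative (61.5% positive) with a median of 0.01 over 13 genes. Of all 14, 0 had an unadjusted p below 0.05. The type I receptor genes Ifnar1 and Ifnar2 were at -0.09 ± 0.13 and 0.11 ± 0.22, and the kinase genes Jak1 and Tyk2 at 0.00 ± 0.09 and 0.01 ± 0.14 according to the authors' deposited table. These 4 were named after their values were seen, as were Ifnb1 and Ifna4. By smallest p the list was led by Socs3 and Socs1, feedback inhibitors of cytokine signalling, at 0.25 ± 0.14 and 0.13 ± 0.13, and by the interferon-gamma receptor genes Ifngr2 and Ifngr1 at 0.23 ± 0.18 and -0.11 ± 0.13 according to the authors' deposited table.

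Other genes of nucleic acid sensing and its signalling numbered 45 at a mean of at least 10, of which 17 were positive and 28 negative, with a median of -0.04. That is 37.8% positive, against 50.5% of all genes at that minimum. An unadjusted p below 0.05 was reached by 1 of the 46 with a fold change (background 0.208%), the RNA helicase gene Ddx3x at -0.18 ± 0.09 (unadjusted p = 0.0360, adjusted p = 1.00, DESeq2) according to the authors' deposited table. The helicase genes Dhx9 and Dhx15 were at -0.16 ± 0.09 and -0.13 ± 0.09, and Prkra, which encodes the PKR activator PACT, at 0.47 ± 0.38 according to the authors' deposited table. None of these passed the adjusted threshold. Of 86 further interferon-stimulated genes at that minimum, 34 were positive and 52 negative, with a median of -0.02. These were 39.5% positive, also below the share over all genes, and neither difference in share was tested. An unadjusted p below 0.05 was reached by 0 of 94. Iigp1, an immunity-related GTPase, was at -0.32 ± 0.17 and Ifi211, of the HIN-200 family, at -0.35 ± 0.20, while Ifitm1 and Ifitm2, membrane proteins that block virus entry, were at 0.34 ± 0.19 and 0.25 ± 0.17 according to the authors' deposited table. These 4 lay on both sides of zero, each less than 2 SE from it.

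**Figure D5:**
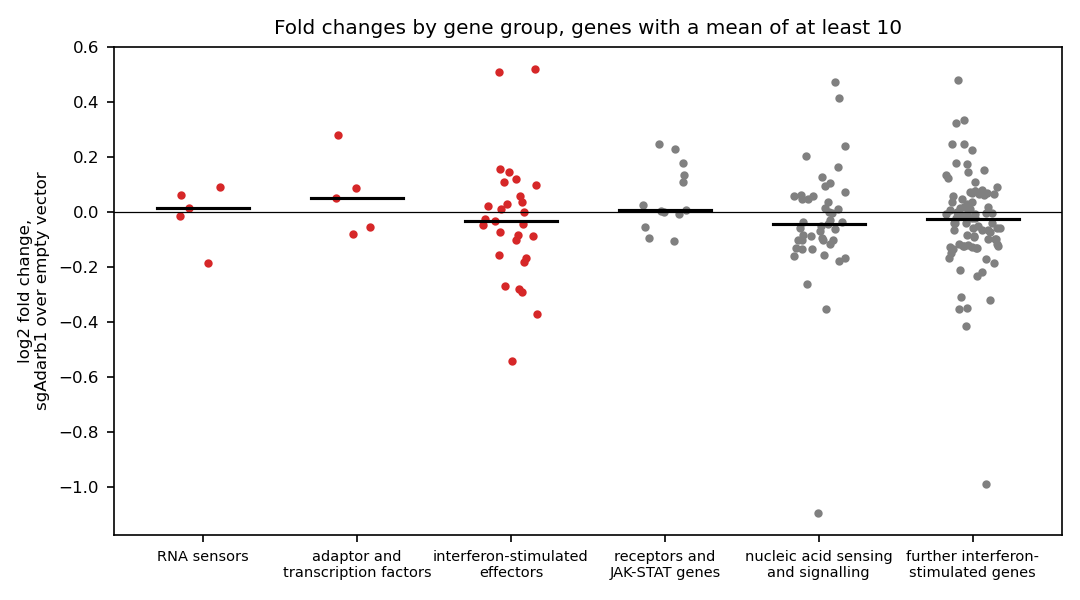
Log2 fold change of sgAdarb1 over empty vector for the 3 classes of members (red) and 3 lists of related genes (grey), genes with a mean of at least 10, with the median of each as a black bar. The medians lie between -0.04 and 0.05.

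Cells that make type I interferon or carry high interferon-stimulated levels were looked for by their markers, and their part in the values was not tested. Of 11 dendritic cell markers 3 were listed at 0 (Siglech, a marker of plasmacytoid dendritic cells, with Clec9a and Cd209a). The highest were Batf3 at 987, Tcf4 at 400 and Zbtb46 at 158 mean normalized counts according to the authors' deposited table. Of 16 myeloid and granulocyte markers 3 were at 0 (C1qa, C1qb and C1qc) and the highest mean was 59.8, that of Cd68, according to the authors' deposited table. The mast cell protease gene Cpa3, in the same list, lay at -5.66 ± 1.26 (adjusted p = 0.0709, DESeq2) with a mean of 28.7, and Cd14 at 0.50 ± 1.02 with a mean of 19.6, according to the authors' deposited table. Of 8 B cell markers 7 had a mean of at least 10, led by Ighm at 1308 and Ebf1 at 964, and of CD8 T and NK cell markers Cd8a was highest at 287 according to the authors' deposited table. Their fold changes were -0.12 ± 0.16 for Ighm, -0.07 ± 0.18 for Ebf1 and 0.74 ± 0.71 for Cd8a according to the authors' deposited table. In the CD8 T and NK list, Cd8b1 lay at 0.20 ± 0.30 and Eomes at -0.41 ± 0.36 according to the authors' deposited table. The 4 genes of this list that reached the minimum of 10 split into 2 positive and 2 negative, with a median of 0.03. Since levels per group were not used here, the summed level of each marker list by group is not given.

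Members with and without the ISRE letters were described side by side. The 19 with a match had a median log2 fold change of -0.01, with 8 positive and 11 negative, and the 11 with a mean of at least 10, a listed promoter and no match had one of -0.05, with 5 positive and 6 negative. Their median levels were 267 and 106 mean normalized counts per kb of exon. The ranges of the fold changes overlapped, from -0.28 to 0.51 with a match and from -0.29 to 0.28 without.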

How the data were processed

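The submitters' processing notes name the aligner STAR 2.6.1a, the read counter featureCounts, DESeq2 1.18.1 and the mm10 build. Libraries were made from ribosome-depleted RNA with 8 PCR cycles, per the labels' protocols. The annotation, strand setting and model formula were not given in the sources used here. Per the file headers, the authors deposited a mean signal under DESeq2's column name for the mean of counts divided by size factors, called here the mean normalized count. They also deposited a log2 fold change and its SE. The Wald score deposited by the authors equalled fold change over SE. The p-value deposited by the authors came with an adjusted p identical to Benjamini-Hochberg values recomputed on the 29383 tested genes.

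The table has 4 columns of values per library that match no label and were not used, so depth per library, refits and pairing were not computed. Its identifiers all matched GENCODE M21, the source of symbols, exon lengths and overlaps (bedtools 2.31.1). Intervals are the fold change plus and minus the normal 95% quantile times the SE, and cover the deposited error only. The members and lists were chosen with earlier results of these data known. All 40 members were named; of each pathway list, up to 4 genes of smallest p with a mean of at least 10; of each list of other cells, up to 3 of highest mean; others were named after their values were seen, and some genes are not reported here. Calculations used Python 3.11.15, pandas 2.3.3 and scipy 1.17.1, and the adjustment was tested on simulated data.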

Additional observations from a re-analysis of the deposited data

How the results depend on the processing

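No member passed under any alternative: thresholds of 0.1 and 0.01, adjustment restricted to means of at least 10 or 50, an unadjusted p below 0.05, centring on the median of the more abundant genes (0.01 on the log2 scale), or removal of a trend on GC content and length, the last chosen after the data were seen. Leaving out the 8 members that share over 5% of their 50-mers with another gene, also chosen afterwards, put the effector median at -0.05. The sensor median lay between -0.004 and 0.03, and the sensors' mean weighted by the inverse square of the SE was -0.02. The sign changed with the summary used, so no direction was resolved for the sensors. At a 99% interval, 28 genes in place of 32 excluded a 2-fold difference. With the GC and length trend removed, 6 members near zero changed sign: Ifih1 (0.0278), Trim30a (0.013), Ifi203 (0.0279) and Irgm1 (0.0181) to positive, and Isg15 (-0.0163) and Ifi35 (-0.0304) to negative; the cause was not tested.

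No paired analysis was possible because no library column bears a culture's name, and so edgeR and DESeq2 fits, other size factors and omission of a culture were not run. The deposited SE limit what was detectable, and they are widest for members with means below about 120.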
